A study of Schmidtea mediterranea with 177 samples.

Results

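The 3 transcripts described here are *ndl-3* (contig dd_Smed_v4_6604_0_1), *wntP-2* (dd_Smed_v4_7326_0_1) and *ptk7* (dd_Smed_v4_6999_0_1) of the planarian flatworm *Schmidtea mediterranea*. They were taken by name, by no threshold on their values, as 3 of the 26560 transcripts for which read counts were deposited. The counts came from 177 single cells of intact asexual animals of the clonal line CIW4, with no RNAi and no amputation. All groups thus share 1 genotype and no experimental treatment, and the study states that its animals were starved before experiments. Animals had been cut along the head-to-tail axis into 10 consecutive pieces, numbered from 1 at the tip of the head to 10 at the tip of the tail, with only midline tissue kept and the pharynx removed from regions 5 and 6. Non-dividing cells were sorted from each region and preselected by qRT-PCR of muscle genes, and the labels divide the sequenced cells into 115 muscle and 62 non-muscle cells. The muscle cells numbered 11, 6, 6, 10, 23, 12, 9, 13, 13 and 12 in regions 1 to 10. The non-muscle cells numbered 11 in region 1, 0 in region 2, 3 in region 3, 3 in region 4, 6 in region 5, 9 in region 6, 11 in region 7, 7 in region 8, 5 in region 9 and 7 in region 10. The labels name no animal, day or plate, so the cells of a region were treated as 1 sample, and every p-value below measures only the spread between regions.

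Planarian muscle cells carry much of the position-dependent gene expression of the adult body, and many of the genes involved encode parts of the Wnt and FGF-receptor-like (FGFRL) systems. Wnt proteins are secreted ligands that signal through Frizzled receptors and co-receptors, and in planarians they are best known for their roles in the posterior of the animal. FGFRL proteins resemble FGF receptors outside the cell but lack the intracellular kinase domain. *ndl-3* is an FGFRL gene of the *nou-darake* family, *wntP-2* encodes a Wnt ligand, and *ptk7* encodes a kinase-like transmembrane protein that acts as a Wnt co-receptor in other animals.

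The stretch of each transcript that the study addressed in its own assays is given by its primers, shown here as the study lists them. They were not matched to the sequences of the 3 contigs. The inner qRT-PCR primers of *ndl-3* and *wntP-2* and the inner forward and the reverse cloning primer of *ptk7* are written 5′ to 3′, with no base set off in capitals.
ndl-3 forward: ctcccacaatttatgagtgcggt
ndl-3 reverse: tcttgggccaattttgagttttgatcta
wntP-2 forward: tgctaaatcaacaccagaatcagct
wntP-2 reverse: cacatccacaattactatgcacccc
ptk7 forward: tcactttggattttatcactgcc
ptk7 reverse: cggatcacctccagcgac

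Sequencing depth varied widely between cells, from 19205 to 3884642 reads, with a median of 259378 for the muscle and 304656 for the non-muscle class. Region 10 muscle was the deepest, with a median of 1238249.5 reads. Of 12 muscle markers that the study had picked from these same cells, a median of 12 were found in muscle cells and 2 in non-muscle cells. The summed level of the 12 markers ran from 781 to 98875 counts per 1000000 reads (cpm) in muscle and from 4.86 to 13779 cpm in non-muscle cells, and 52 of the 62 non-muscle cells had more than 2 reads of *troponin*, a defining muscle gene. Of 12 markers from the epidermal lineage side of the study's principal components, a median of 1 was found in muscle and 10 in non-muscle cells, and of 4 from the neoblast side, 4 and 3. The class labels had been set partly from principal components of the same cells, and whether the 3 transcripts entered them was not tested. Here a cell is said to contain a transcript when it had more than 2 reads of it. A share of cells is given with its exact (Clopper-Pearson) 95% binomial interval, and since the libraries carry no molecular identifiers, these intervals cover counting error only.

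In muscle the 3 transcripts occupied staggered and overlapping stretches of the body, with *ndl-3* toward the front of the trunk, *wntP-2* toward the tail and *ptk7* broadest in between. The mean region of the cells that contained them was 4.71 (SD 1.66, 34 cells) for *ndl-3*, 6.07 (SD 2.21, 68 cells) for *ptk7* and 7.18 (SD 2.28, 45 cells) for *wntP-2*, beside 5.84 (SD 2.74) for all 115 muscle cells. Because the regions held unequal numbers of cells, the mean region was also weighted by the share in each region. It was then 4.32 for *ndl-3*, 5.90 for *ptk7* and 7.19 for *wntP-2*, and this order was the same after each cell had been thinned to 50000 reads (4.36, 5.78 and 6.75). Leaving out each region in turn moved the weighted mean between 4.05 and 4.70 for *ndl-3*, between 5.51 and 6.18 for *ptk7* and between 6.52 and 7.47 for *wntP-2*. These ranges did not overlap, but they show only the weight of single regions and not the counting error of the shares.

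**Figure D1:**
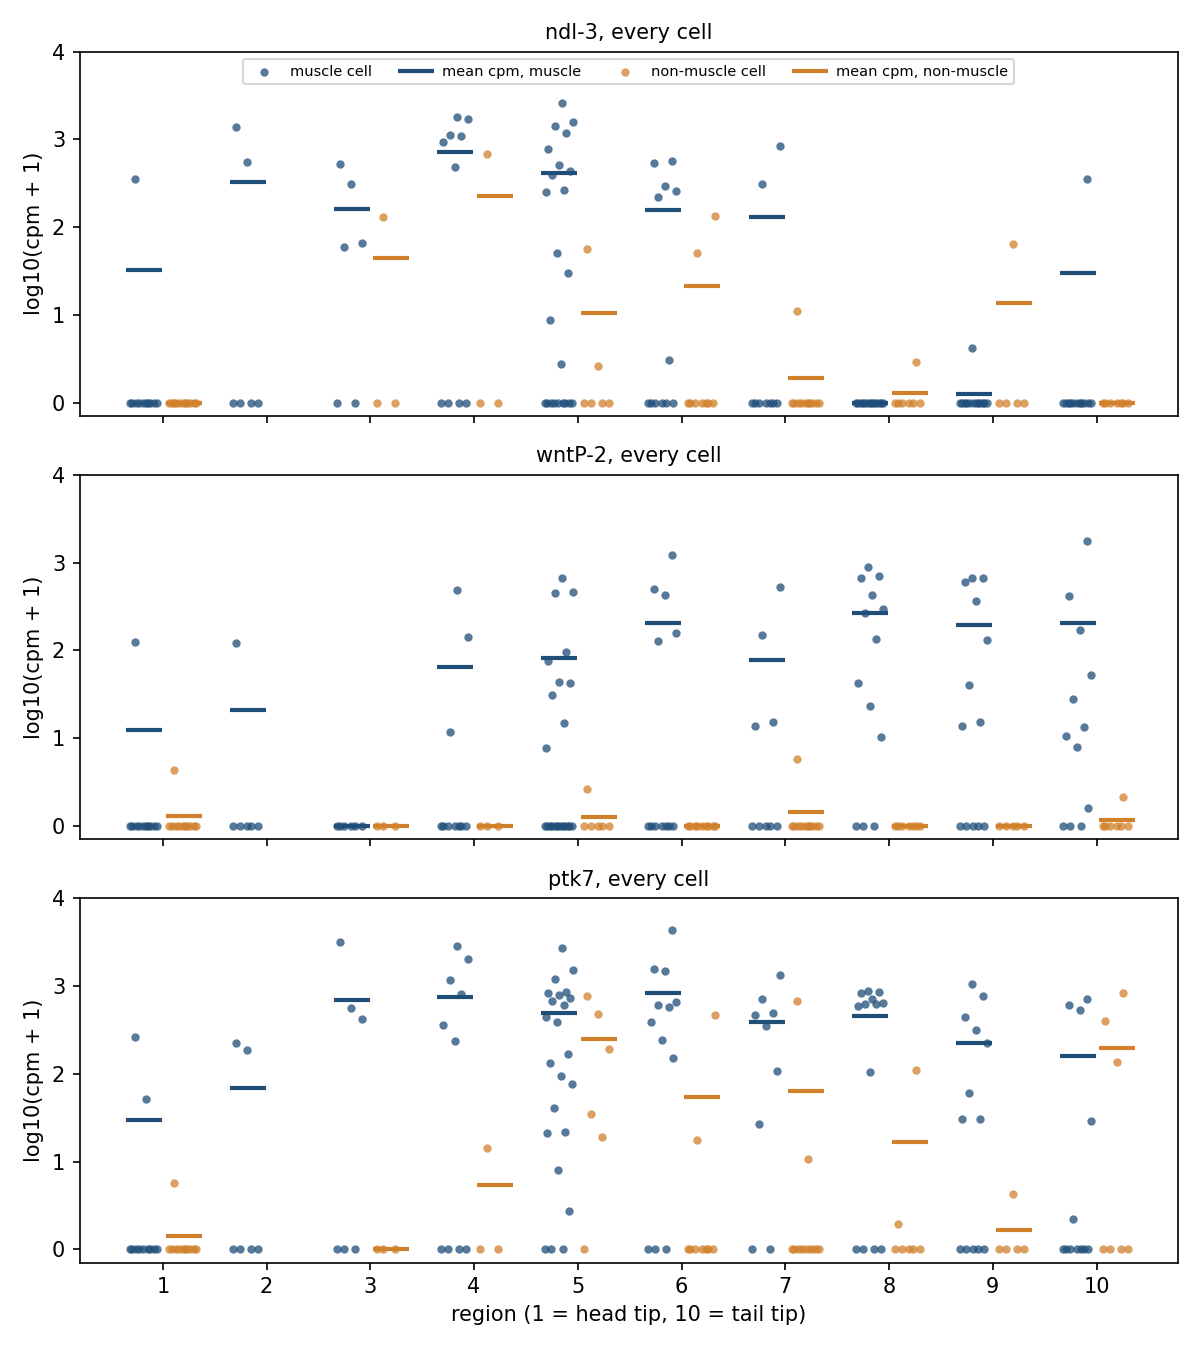
Level of *ndl-3*, *wntP-2* and *ptk7* in every cell, as log10(cpm + 1) on the vertical axis against the region on the horizontal axis. Each point is a cell (muscle in blue, non-muscle in orange), and each horizontal bar is the log10 of the mean cpm plus 1 over the cells of a region and class. *ndl-3* points above 0 lie mainly in regions 2 to 7, those of *wntP-2* mainly in regions 4 to 10, and those of *ptk7* in muscle in every region.

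*ndl-3* was found in 34 of 115 muscle cells (29.6%, interval 21.4 to 38.8%). By region, it was found in 1 of 11 muscle cells in region 1, 2 of 6 in region 2, 4 of 6 in region 3, 6 of 10 in region 4, 13 of 23 in region 5, 5 of 12 in region 6, 2 of 9 in region 7, 0 of 13 in region 8, 0 of 13 in region 9 and 1 of 12 in region 10. Regions 2 to 7 thus held 32 of the 34 cells. In regions 8 and 9 a count of 0 of 13 allows a share of up to 23.1% by a floor of 3 counts (exact upper limit 24.7%), and the only read of *ndl-3* in the 26 muscle cells of these regions lay in region 9. The level over the summed reads of a region was 42.3 cpm in region 1, 356 in region 2, 196 in region 3, 763 in region 4, 621 in region 5, 84.1 in region 6, 96.0 in region 7, 0 in region 8, 0.352 in region 9 and 34.7 in region 10. Regions 4 and 5 were highest on this scale.

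Several of these levels rested on few cells. A single cell held all *ndl-3* reads of region 1 and of region 10, and 93.6% of those of region 2. In region 4, where 6 cells contained it, the highest cell held 36.3% of the reads, and the cells that contained it had a median of 1096 cpm. In the order of the shares (regions 3, 4, 5, 6, 2, 7, 1, 10, 8 and 9), no region differed from its neighbour beyond the counting intervals, whereas the intervals of regions 4 and 5 lay above those of regions 8 and 9.

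*wntP-2* was found in 45 of 115 muscle cells (39.1%, interval 30.2 to 48.7%). It was found in 1 of 11 muscle cells in region 1, 1 of 6 in region 2, 0 of 6 in region 3, 2 of 10 in region 4, 9 of 23 in region 5, 5 of 12 in region 6, 2 of 9 in region 7, 10 of 13 in region 8, 7 of 13 in region 9 and 8 of 12 in region 10. As sequenced, its share was low in front of the trunk and highest in the last 3 regions. The level over summed reads was 9.07 cpm in region 1, 8.73 in region 2, 0 in region 3, 53.3 in region 4, 94.4 in region 5, 159 in region 6, 100.2 in region 7, 362 in region 8, 247 in region 9 and 190.4 in region 10. The level was thus highest in region 8 and not at the tail tip.

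The 8 cells of region 10 that contained *wntP-2* had a median of 39.0 cpm, beside 282 cpm in the 10 cells of region 8, and 1 cell held 61.5% of the reads of region 10. Region 10 was also the most deeply sequenced. After thinning to 50000 reads per cell, the share in region 10 was 4 of 12 in place of 8 of 12, in region 8 it was 7 of 12 in place of 10 of 13, and in region 9 it was 5 of 13 in place of 7 of 13. Region 6, with 4 of 9, then stood above regions 9 and 10. Neighbours in the order of the shares (regions 8, 10, 9, 6, 5, 7, 4, 2, 1 and 3) had overlapping intervals, and only the interval of region 8 lay above those of regions 1 and 3.

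*ptk7* was the most widely distributed of the 3, with at least 2 containing muscle cells in each of the 10 regions. It was found in 2 of 11 cells in region 1, 2 of 6 in region 2, 3 of 6 in region 3, 6 of 10 in region 4, 19 of 23 in region 5, 9 of 12 in region 6, 7 of 9 in region 7, 8 of 13 in region 8, 8 of 13 in region 9 and 4 of 12 in region 10. Its share was thus lowest at the 2 ends of the animal. It was found in 4 of 17 cells (23.5%, interval 6.81 to 49.9%) in regions 1 and 2 and in 60 of 86 (69.8%, interval 58.9 to 79.2%) in regions 3 to 9. In region 10 it was found in 4 of 12 (33.3%, interval 9.92 to 65.1%), an interval that overlapped that of regions 3 to 9. These groups were drawn with the regional shares known, so their intervals are a description only. The level over summed reads was 12.4 cpm in region 1, 45.2 in region 2, 834 in region 3, 676 in region 4, 547.7 in region 5, 796 in region 6, 325 in region 7, 347 in region 8, 199 in region 9 and 238 in region 10. Single cells weighed heavily in region 3, where 1 of 6 cells held 75.2% of the reads, and in region 6, where 1 of 12 held 64.2%. In the order of the shares, only the intervals of the highest (region 5) and the lowest (region 1) did not overlap.

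**Figure D2:**
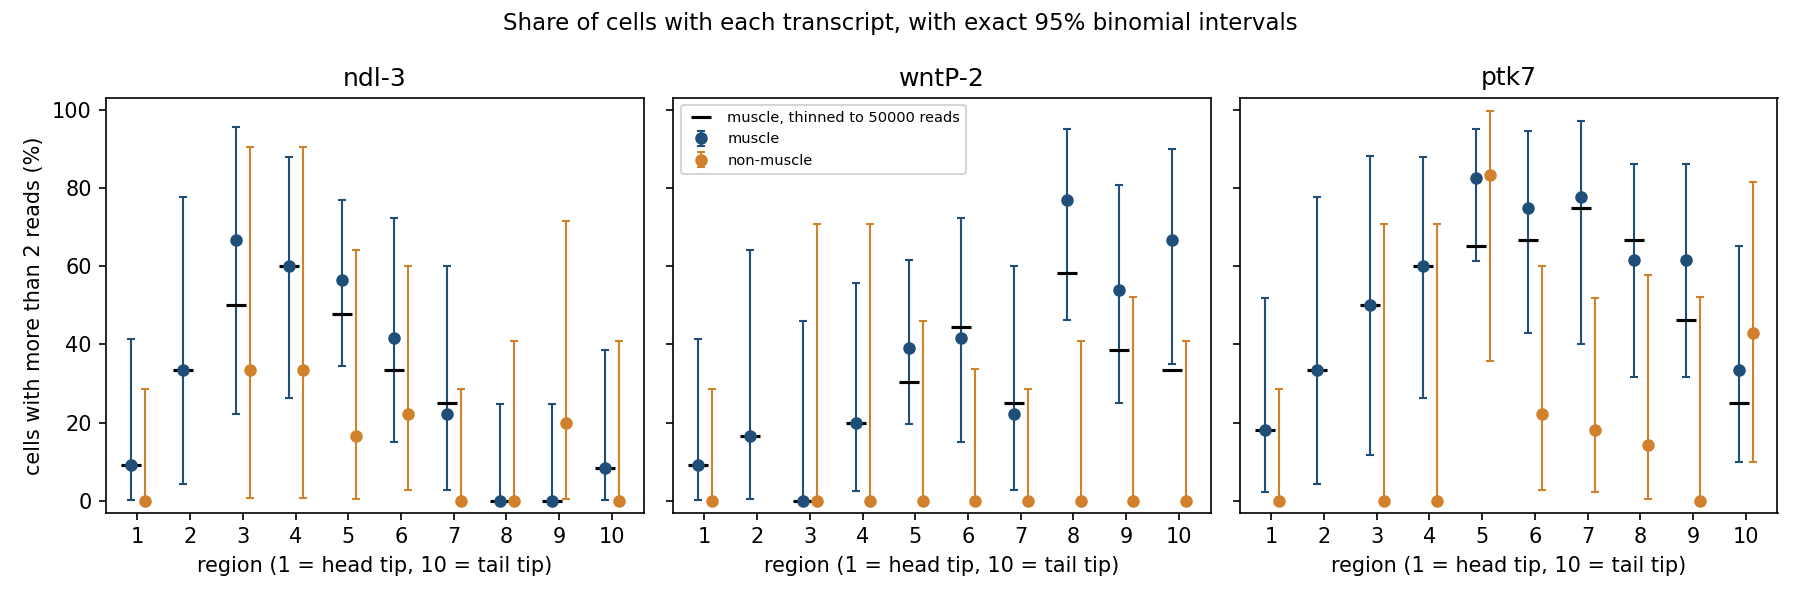
Share of cells with more than 2 reads of each transcript (vertical axis, percent) by region (horizontal axis), in muscle (blue) and non-muscle (orange) cells, with exact 95% binomial intervals as bars and the share in muscle after thinning to 50000 reads as black dashes. The *ndl-3* share in muscle reaches 66.7% in region 3 and is 0 in regions 8 and 9, that of *wntP-2* is highest in region 8 at 76.9%, and that of *ptk7* is highest in region 5 at 82.6%.

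The same stagger appeared in the region groups that the study's methods set against each other. Between regions 1 to 3 and regions 8 to 10, *ndl-3* was found in 7 of 23 and 1 of 38 muscle cells, *wntP-2* in 2 of 23 and 25 of 38, and *ptk7* in 7 of 23 and 20 of 38. Between region 1 and regions 7 to 9, the counts were 1 of 11 and 2 of 35 for *ndl-3*, 1 of 11 and 19 of 35 for *wntP-2*, and 2 of 11 and 23 of 35 for *ptk7*. Between regions 2 to 4 and region 10, they were 12 of 22 and 1 of 12 for *ndl-3*, 3 of 22 and 8 of 12 for *wntP-2*, and 11 of 22 and 4 of 12 for *ptk7*. *ndl-3* was thus most frequent in the group that began behind the head tip, and *ptk7* in the group that ended before the tail tip.

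The cell numbers in the titles form 3 runs whose meaning is not given, and the runs cover different regions, so the shares were also read within each run. In regions 7 to 10, *ndl-3* was found in 1 of 12 cells of the first run, 1 of 17 of the second run and 1 of 18 of the last run, beside 11 of 28 and 2 of 5 in regions 1 to 4 for the first and second. *wntP-2* was found there in 6 of 12, 14 of 17 and 7 of 18 cells, and in regions 1 to 4 in 3 of 28 cells of the first run and 1 of 5 of the second, the last holding no cell from these regions. Its share was thus higher in regions 7 to 10 than in regions 1 to 4 within both runs that cover them. *ptk7* was found in 9 of 12, 12 of 17 and 6 of 18 cells in regions 7 to 10, so its frequency in the rear differed between the runs. Region 6 held only 12 muscle cells in all, and there *ndl-3* was found in 80% of the muscle cells of the first run and 14.3% of those of the last.

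Change along the axis in muscle was examined with the quasi-likelihood test of edgeR, applied to the summed reads of each region's muscle cells, across 13570 transcripts found in at least 3 muscle cells. The slope on region number called 2 of 13570 transcripts (0.0147%) at a Benjamini-Hochberg adjusted p under 0.05, and none of the 3 members was among them. The slope of *wntP-2* was 0.73 log2 units per region toward the tail (SE 0.19, unadjusted p = 0.00093, adjusted p = 0.324), and its direction was positive in each of 17 alternative fits, of which DESeq2 alone passed the threshold (adjusted p = 0.0041). The slope of *ndl-3* was -0.57 per region (SE 0.32, adjusted p = 1.00) and was negative in each of 17 alternative fits. The slope of *ptk7* was 0.06 per region (SE 0.17, adjusted p = 1.00), with no stable sign.

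A transcript highest in the middle of the animal can have a slope near 0, so the curvature was tested as well. It was a quadratic term beside the linear term in the same sums. This test called 0 of 13570 transcripts (0%), where 857 had an unadjusted p under 0.05, DESeq2 called 99 and limma called 0. The quadratic term of *ptk7* was -0.18 log2 units per squared region (SE 0.05, unadjusted p = 0.0016, adjusted p = 0.322), the sign of a level that is higher in the middle than at the ends. It was negative in each of 17 alternative fits, between -0.24 and -0.11, and passed the threshold only with no filter on low counts (adjusted p = 0.0403), where edgeR called 936 transcripts. The quadratic terms of *ndl-3* (-0.12, SE 0.09, adjusted p = 1.00) and *wntP-2* (-0.06, SE 0.06, adjusted p = 1.00) had errors of similar size, and both were negative in each of 17 alternative fits.

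The contrast of the last 3 with the first 3 regions in muscle called 4 of 13504 transcripts (0.0296%), again none of the 3. *wntP-2* stood 5.87 log2 units higher in regions 8 to 10 (SE 1.32, adjusted p = 0.268), and passed the threshold with DESeq2 (adjusted p = 0.0110), with no filter on low counts (adjusted p = 0.0030) and without region 10 (adjusted p = 0.0366). *ndl-3* stood at -3.80 in the same contrast (SE 1.73, adjusted p = 0.728) and at -9.38 without region 10, where a single cell held all its reads. *ptk7* stood at 0.21 (SE 1.07, adjusted p = 1.00), and its sign turned with scaling by library size alone (-0.18), which also moved the median of all transcripts in this contrast from 0.31 to -0.03, and with the size factors of DESeq2 (-0.10). Without region 3, which held its highest anterior level, it stood at 3.59, so *ptk7* had no settled direction between the ends of the animal.

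The second question of the design is whether these transcripts belong to muscle. *wntP-2* was found in 0 of 62 non-muscle cells, which allows a share of up to 4.84% by a floor of 3 counts (exact upper limit 5.78%), whereas *ndl-3* was found in 6 of 62 (9.68%, interval 3.63 to 19.9%) and *ptk7* in 13 of 62 (20.97%, interval 11.7 to 33.2%). All non-muscle cells together held 4 reads of *wntP-2*, 1 each in 4 cells, or 0.141 cpm with a counting interval of 0.0385 to 0.362, beside 150.2 cpm in muscle. The pooled level of *ndl-3* was 193 cpm in muscle and 7.63 cpm in non-muscle cells, and that of *ptk7* was 368 and 90.2 cpm. By the shares in non-muscle cells, only *wntP-2* and *ptk7* were separated beyond the counting intervals. The interval of *ndl-3* overlapped those of both others.

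In the summed reads of the 9 regions with both classes, edgeR called 2.96% of 16613 transcripts higher in muscle, and 2 of the 3 members were among them. The 3 members are on the study's list of genes with regional expression in muscle, drawn partly from these same cells. *wntP-2* was 9.24 log2 units higher in muscle (SE 1.33, adjusted p = 2.33e-05), a value that depends on edgeR's prior count because its non-muscle reads were 0 in 5 of 9 regions. *ptk7* was 4.80 log2 units higher (SE 0.99, adjusted p = 0.00186). Both passed the threshold in each of 16 alternative fits. *ndl-3* was 4.10 log2 units higher but just missed it (SE 1.32, adjusted p = 0.0591). It passed in 7 of 16 alternatives, among them those without region 8 (adjusted p = 0.0281) and without region 9 (adjusted p = 0.0105), and the adjusted p ran from 0.0019 to 0.192 over all of them.

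The share of containing cells was compared between the classes within the same 9 regions by an exact two-sided permutation test that swaps the classes within regions, for which the smallest possible p is 0.00391. Averaged over regions, the share of *wntP-2* was 36.6% in muscle and 0% in non-muscle cells, higher in 8 of 9 regions and equal at 0 in region 3 (exact p = 0.00781). The share of *ptk7* was 57.8% and 20.1%, higher in muscle in 7 of 9 regions and lower in regions 5 and 10 (exact p = 0.0156). The share of *ndl-3* was 29.4% and 14.0%, higher in 7 of 9 regions, equal at 0 in region 8 and lower in region 9 (exact p = 0.0469). These 3 p-values are not adjusted for the number of tests. That of *ndl-3* did not hold when 7 of the 9 regions were left out in turn, where it rose to as much as 0.0938, whereas those of *wntP-2* and *ptk7* stayed under 0.05 in each such case.

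The non-muscle cells that contained *ptk7* were unevenly spread. They were 5 of 6 cells in region 5, 2 of 9 in region 6, 2 of 11 in region 7, 1 of 7 in region 8 and 3 of 7 in region 10, with 0 in regions 1, 3, 4 and 9. The pooled non-muscle level was 282 cpm in region 5 and 377.02 cpm in region 10. The latter rested on 1 cell with 66.7% of the reads, without which it was 181 cpm, below the 238 cpm of muscle in that region. The 3 containing cells of region 10 were 3 of 3 in the second run of cell numbers, beside 0 of 4 in the last run. These 13 cells were more deeply sequenced than the other 49 non-muscle cells, with a median of 607241 against 252828 reads, and after thinning *ptk7* was found in 9 of 62 cells. They carried a median of 2 of the 12 muscle markers (159 cpm in sum, range 13.2 to 2258), like the other non-muscle cells (2 of 12, 180.1 cpm), and a median of 10 of the 12 markers from the epidermal lineage side of the study's principal components (8542 cpm in sum, range 902 to 16079), as did the other 49 (10 of 12, 6311 cpm). Their part in the result was not tested.

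*ndl-3* was found in single non-muscle cells of regions 3, 4, 5 and 9 and in 2 cells of region 6. The highest of them, in region 4, reached 671 cpm and the others 49.6 to 132 cpm. These 6 cells carried a median of 4 of the 12 muscle markers, with a summed level of 18.9 to 5884 cpm and a median of 927 cpm, beside 2 of 12 and 164 cpm in the 56 non-muscle cells without it. They had a median of 5 of 12 epidermal lineage side markers, beside 10 of 12 in the 56. The part of these markers in the *ndl-3* values was not tested. Within muscle the median sum of the muscle markers was larger in the cells with each member, at 21710 against 15317 cpm for *ndl-3*, 22156 against 14256 cpm for *wntP-2* and 21301 against 11995 cpm for *ptk7*. Its part in the shares and in the co-expression given next was not tested.

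Co-expression was read in the same muscle cells. All 3 transcripts were found together in 12 of 115 cells, *wntP-2* and *ptk7* without *ndl-3* in 19, *ndl-3* and *ptk7* without *wntP-2* in 16, *ptk7* alone in 21, *wntP-2* alone in 14, *ndl-3* alone in 6, and none of them in 27. No muscle cell held *ndl-3* and *wntP-2* without *ptk7*: each of the 12 cells with both also contained *ptk7*. This held with a threshold of 10 cpm and after thinning, whereas with a threshold of 1 read there was 1 such cell beside 14 with all 3. At the main threshold, regions 5 and 6 held 9 of the 12 cells with both. There *ptk7* was found in 28 of all 35 muscle cells, so few cells of these regions lacked it. The part of this frequency in the pattern was not tested. The combinations were ordered along the body. *ndl-3* with *ptk7* alone occurred in regions 2 to 7 (1, 3, 3, 4, 3 and 2 cells), all 3 together in regions 4 (2 cells), 5 (7 cells), 6 (2 cells) and 10 (1 cell), and *wntP-2* with *ptk7* alone in regions 5 to 10 (1, 3, 2, 6, 5 and 2 cells). Regions 4 to 6 therefore held 11 of the 12 cells with all 3, but region 5 also held the most muscle cells. As shares, cells with all 3 were 2 of 10 in region 4, 7 of 23 in region 5, 2 of 12 in region 6 and 1 of 12 in region 10.

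**Figure D3:**
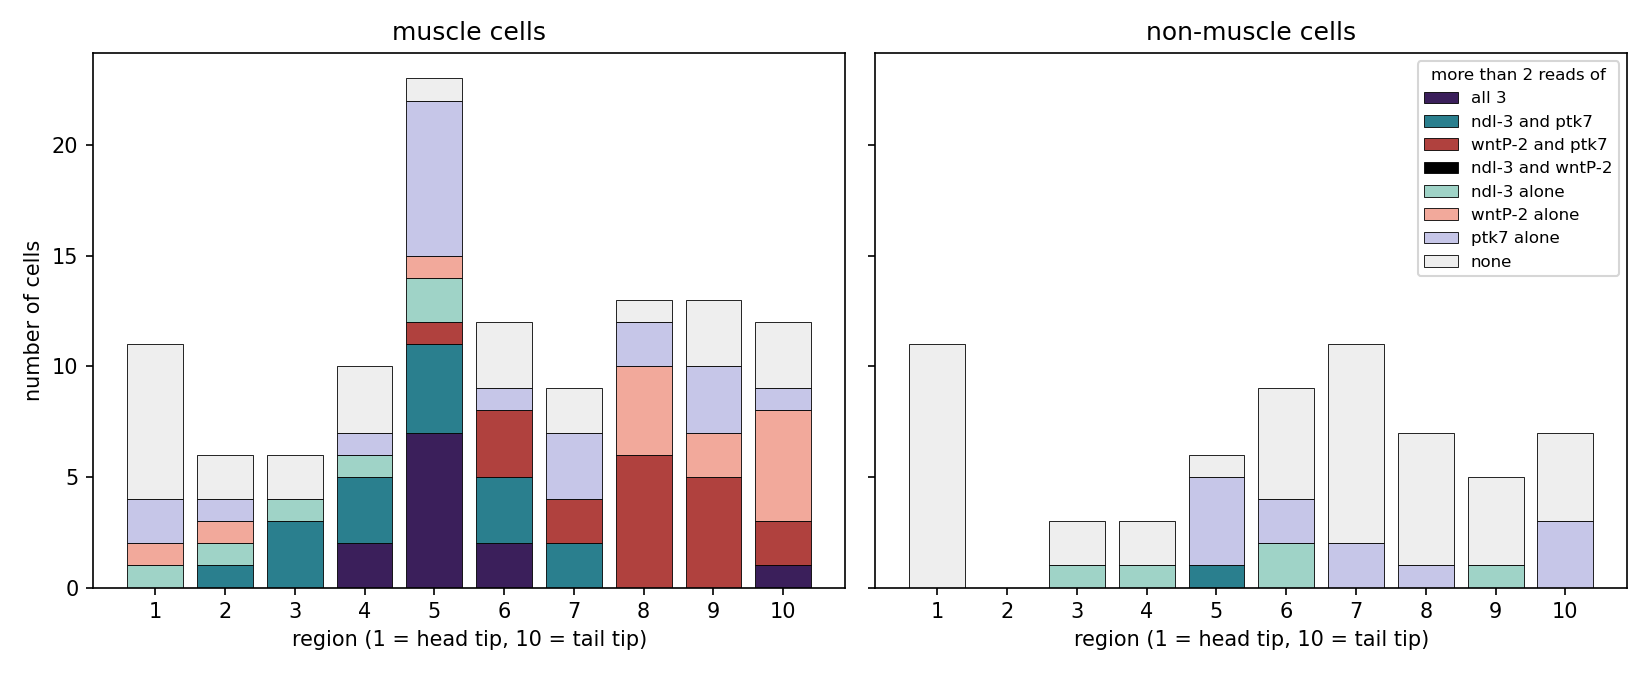
Number of cells (vertical axis) with each combination of the 3 transcripts by region (horizontal axis), in muscle on the left and non-muscle cells on the right, with a cell counted for a transcript when it had more than 2 reads. Cells with all 3 (dark violet) lie in regions 4 to 6 apart from 1 cell in region 10, *ndl-3* with *ptk7* (teal) lies in regions 2 to 7 and *wntP-2* with *ptk7* (red) in regions 5 to 10.

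Most cells with *ndl-3* also contained *ptk7*. *ptk7* was found in 28 of 34 muscle cells with *ndl-3* (82.4%, interval 65.5 to 93.2%) and in 40 of 81 without it (49.4%, interval 38.1 to 60.7%), intervals that did not overlap. The 2 sets of cells had similar depth, with a median of 256347 and 260423 reads. In regions 1 to 4 the counts were 9 of 13 and 4 of 20, in regions 5 and 6 they were 16 of 18 and 12 of 17, and in regions 7 to 10 they were 3 of 3 and 24 of 44. The share of *ptk7* was thus higher in cells with *ndl-3* in each of the 3 stretches, although within each stretch the intervals overlapped. After thinning, the counts over all regions were 23 of 29 and 34 of 81.

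*wntP-2* and *ptk7* were compared in the same way. *ptk7* was found in 31 of 45 cells with *wntP-2* (68.9%, interval 53.4 to 81.8%) and in 37 of 70 without it (52.9%, interval 40.6 to 64.9%), with overlapping intervals and a deeper median in the cells with *wntP-2* (404780 against 246398 reads). In regions 1 to 4 the counts were 2 of 4 and 11 of 29, in regions 5 and 6 they were 13 of 14 and 15 of 21, and in regions 7 to 10 they were 16 of 27 and 11 of 20, with overlapping intervals in each. The 11 cells with *wntP-2* and no *ptk7* in regions 7 to 10 lay in regions 8 (4 cells), 9 (2 cells) and 10 (5 cells).

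*ndl-3* and *wntP-2*, whose stretches differ most, met mainly in the middle of the body. Over all regions *wntP-2* was found in 12 of 34 cells with *ndl-3* (35.3%, interval 19.7 to 53.5%) and in 33 of 81 without it (40.7%, interval 29.9 to 52.2%). In regions 1 to 4 the counts were 2 of 13 and 2 of 20, in regions 5 and 6 they were 9 of 18 and 5 of 17, and in regions 7 to 10 they were 1 of 3 and 26 of 44, with overlapping intervals in each. After thinning, the counts over all regions were 9 of 29 and 24 of 81, so that the order of the shares turned. The read counts in the cells with both varied widely. In region 5, for example, 1 such cell of 724004 reads had 1034 reads of *ndl-3*, 484 of *wntP-2* and 1981 of *ptk7*, and a second of 1037925 reads had 2663, 31 and 886. Another cell of region 5, of 432406 reads, had only 168, 6 and 9. In region 6, a cell of 157762 reads had 35, 192 and 236. The cell in region 10 had 348 cpm of *ndl-3*, 9.73 of *wntP-2* and 28.0 of *ptk7* in 1644902 reads. Muscle cells with all 3 had a median of 326691.5 reads and 3573.5 transcripts, beside 227555 reads and 2808 transcripts in cells with 2 of them, 313118 and 2920 in cells with 1 and 273089 and 2840 in cells with none. A cell with many transcripts can be a pair of cells sorted together, and this was not tested.

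In non-muscle cells the combinations were nearly absent. *ndl-3* and *ptk7* were found together in 1 cell, of region 5, with *ptk7* alone in 12 cells, *ndl-3* alone in 5 and none of the 3 in 44.

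The members were also set beside 21 other genes of the 2 systems, 16 of the Wnt pathway and 5 of the FGFRL family. All of them are on the study's list of genes with regional expression in muscle. That list was drawn partly from these same muscle cells. The shares over all transcripts given below are therefore not a like background for the 21, and their counts are a description. All 21 entered the tests, and the slope test called 1 of them lower toward the tail, the FGFRL gene *ndl-2*, and none higher. Of the 21 slopes 9 were positive, and their median was -0.17 beside 0.03 over all transcripts. Without region 1 none was called, and 11 of the 19 that could still be tested were positive, with a median of 0.09. In the comparison of muscle with non-muscle cells, 10 of the 21 were called higher in muscle and 0 lower, where 2.96% of all transcripts were called higher, with a median difference of 5.49 log2 units beside 0.27 over all transcripts. The count was 5 without region 10 and 5 with limma, and at most 12 in the other alternatives. The 10 called were the Wnt ligands *wnt1*, *wnt2*, *wnt11-1*, *wnt11-2* and *wntA*, the Frizzled receptors *fz4-1*, *fz4-2* and *fz4-3*, the secreted Wnt inhibitor *sFRP-1* and *wntless*, which is needed for Wnt secretion. None of the 5 FGFRL genes was called in this comparison, and neither was *ndl-3*. *ndk*, *ndl-1*, *ndl-4* and *ndl-5* were found in 13, 10, 13 and 14 non-muscle cells, whereas *ndl-2*, like *wntP-2*, was found in 0. The contig of *wntA* also matches an unrelated protein in the study's annotation, so its counts may mix 2 genes.

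**Figure D4:**
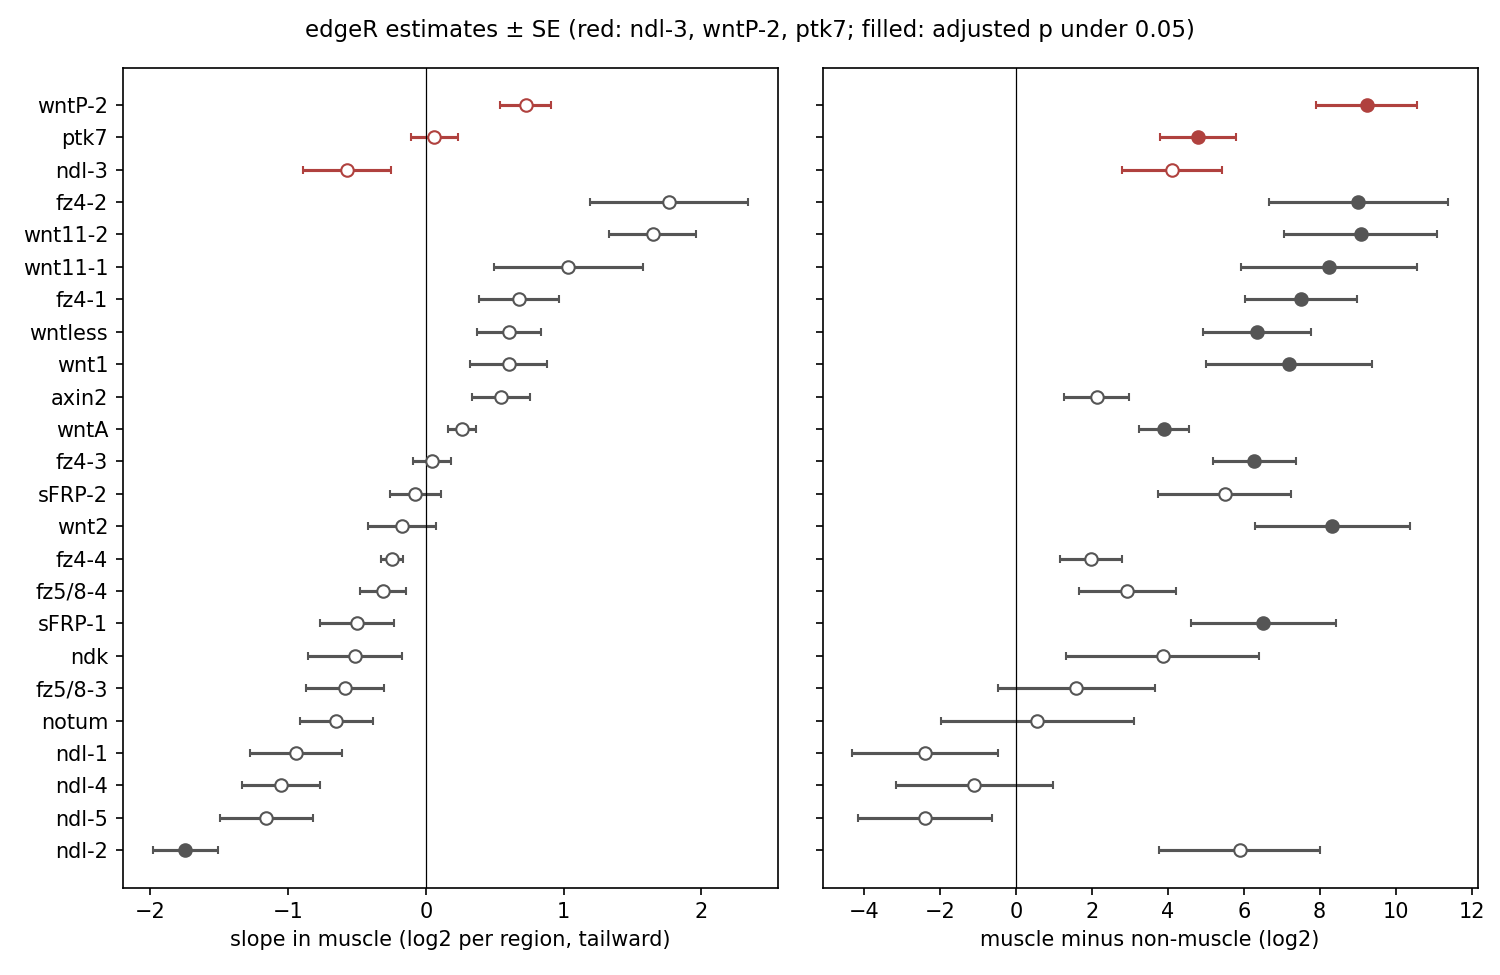
edgeR estimates with their SE for the 3 members (red) and the 21 other Wnt and FGFRL genes (grey): on the left the slope in muscle in log2 units per region toward the tail, on the right the difference of muscle minus non-muscle cells in log2 units. Filled points passed an adjusted p of 0.05: *ndl-2* on the left, and *wntP-2*, *ptk7* and 10 other genes on the right. *wntP-2* (0.73) and *ndl-3* (-0.57) lie on opposite sides of 0 on the left, with *ptk7* near 0.

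The pathway genes most often found in muscle cells with a member were the same for each of the 3, in differing order: *fz4-4*, which encodes a Frizzled receptor, *wntA*, and *axin2*, an intracellular part of the pathway. They were also the 3 found most often in muscle as a whole, with *wntA* in 89, *fz4-4* in 75 and *axin2* in 61 of 115 cells. *axin2* was found in 47 of 68 muscle cells with *ptk7* (69.1%, interval 56.7 to 79.8%) and in 14 of 47 without it (29.8%, interval 17.3 to 44.9%). The median depth was 219759 reads in the cells with *ptk7* and 319727 in those without it. In regions 1 to 4 the counts were 7 of 13 and 3 of 20, in regions 5 and 6 they were 21 of 28 and 2 of 7, and in regions 7 to 10 they were 19 of 27 and 9 of 20. The muscle markers moved with this difference, as given above. The parts of the markers, of depth and of position in it were not tested. *fz4-4* was found in 29 of 34 cells with *ndl-3* (85.3%, interval 68.9 to 95.05%) and in 46 of 81 without it (56.8%, interval 45.3 to 67.8%). By stretch, its counts were 10 of 13 and 16 of 20 in regions 1 to 4 and 16 of 18 and 13 of 17 in regions 5 and 6. In regions 7 to 10 they were 3 of 3 and 17 of 44. The share of *fz4-4* was thus not higher with *ndl-3* in regions 1 to 4, and the part of position in the pooled difference was not tested. With *wntP-2*, *wntA* was found in 40 of 45 cells and in 49 of 70 without it, with overlapping intervals. *wnt11-1*, a Wnt ligand gene chosen after its values were seen, was found in 17 of 45 cells with *wntP-2* (37.8%, interval 23.8 to 53.5%) and in 3 of 70 without it (4.29%, interval 0.893 to 12.0%). By stretch, its counts were 0 of 4 and 0 of 29 in regions 1 to 4, and 5 of 14 and 1 of 21 in regions 5 and 6. In regions 7 to 10 they were 12 of 27 and 2 of 20. The cells with *wntP-2* were also the deeper ones (404780 against 246398 reads in the median). The parts of position and depth in this difference were not tested.

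Over the 10 regions, the mean of ln(cpm + 1) in muscle gives each transcript a profile, and the likeness of 2 profiles is described here by Pearson's r over 10 points that share the same libraries and depths. Between the members, r was -0.55 for *ndl-3* and *wntP-2*, 0.37 for *ndl-3* and *ptk7*, and 0.41 for *wntP-2* and *ptk7*. Among 9081 other transcripts found in at least 10 muscle cells, the highest r was 0.90 with *ndl-3*, 0.93 with *wntP-2* and 0.89 with *ptk7*, each with a contig that neither the counts nor the study's list of regional genes names. Of the 17 pathway genes found in enough cells to be compared, *wnt11-1* was closest to *wntP-2* (r = 0.87, rank 15), *axin2* (r = 0.76, rank 28) and *fz4-3* (r = 0.73, rank 47) were closest to *ptk7*, and *sFRP-2* (r = 0.60, rank 190) and *fz4-4* (r = 0.59, rank 217) were closest to *ndl-3*. The profiles had an r of -0.07 (*ndl-3*), -0.10 (*wntP-2*) and -0.50 (*ptk7*) with the log of the median reads per cell, so that *ptk7* was lower where cells were deeper.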

How the data were processed

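Read counts per transcript for 177 cells were used as deposited. The authors made SmartSeq2 libraries, sequenced them, called bases with CASAVA 1.7.0, trimmed reads with cutadapt, aligned them with Bowtie against the dd_Smed_v4 assembly, discarded mitochondrial and ribosomal contigs and summed isotigs. The 3 deposited tables of the authors' own regional comparisons (scores, fold changes) were not used. The labels gave the region and class of each cell. The 3 members, the 21 pathway genes and the marker lists were chosen with earlier results of these data known. Counts were summed per region and class and tested with edgeR 4.0.16 (TMM, robust quasi-likelihood, transcripts found in at least 3 cells, Benjamini-Hochberg adjustment over all of them), and the SE is the log2 estimate divided by the square root of F. DESeq2 1.42.0 and limma 3.58.1 (log2 of mean cpm + 1), other scalings, thinning to 50000 reads (which leaves out 5 muscle cells), left-out regions and a number-run covariate served as alternatives. The scripts were tested on simulated data. No doublet caller was run. Named genes were the members, pathway genes whose calls differed or stood beside a member's, the pathway genes most often found with each member, and the nearest profiles. Alternatives chosen after seeing the data were the non-muscle *ptk7* level of region 10 without its highest cell and the splits of pathway genes by stretch of regions. Exact tests and intervals used scipy 1.17.1.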

Additional observations from a re-analysis of the deposited data

Results flagged for a closer look

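Within groups of 4 to 10 cells of a region and class, Dixon's test at its 95% level was applied to the cpm of each member, and the highest cell stood apart in 14 of 22 such sets of values. Chance alone would give about 1 in 20, and where the other cells are at or near 0 a single containing cell meets the rule by construction. For *ndl-3* the highest cells had 841 cpm in region 7 muscle, and 55.9, 132, 1.95 and 63.3 cpm in non-muscle cells of regions 5, 6, 8 and 9. For *wntP-2* they had 120.3, 492.7 and 521.2 cpm in muscle of regions 2, 4 and 7, and 1.67 and 1.15 cpm in non-muscle cells of regions 5 and 10. For *ptk7* they had 3141 cpm in region 3 muscle, where the next cell had 561.7 cpm, and 465, 110.2 and 3.22 cpm in non-muscle cells of regions 6, 8 and 9.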

How the results depend on the processing

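Of the 12 member estimates from the fits, 10 kept their sign in every alternative. *ptk7* lost its sign in the slope with library size alone (-0.0052) and without region 1 or 2 (slope of *ptk7* over left-out regions -0.0918 to 0.213), and in the contrast of regions 8 to 10 with 1 to 3 with library size alone (-0.18), the size factors of DESeq2 in edgeR (-0.10), DESeq2 itself (-0.10) and without regions 1 or 2 (range -0.35 to 3.59). Estimates that newly passed the threshold were, with DESeq2, *wntP-2* in the slope (0.73), in the end contrast (5.79) and *ndl-3* between classes (4.12). With no filter they were *ptk7* curvature (-0.18), *wntP-2* in the end contrast (5.90) and *ndl-3* between classes (4.11). *ndl-3* between classes also passed with library size alone (4.07), thinning (3.00) and the number run as a covariate (3.96). Over left-out regions the *wntP-2* end contrast ran from 5.33 to 6.36 and *ndl-3* between classes from 3.43 to 4.67. The *ndl-3* share difference of 15.4 percentage points was 13.3 with at least 1 read (exact p = 0.0586) and 13.9 with at least 10 cpm (exact p = 0.0547), and 12.4 to 19.9 over left-out regions.

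Counts of transcripts called moved more. For the slope, 2 became 1 with library size alone, 1 with DESeq2's size factors, 142 with DESeq2, 0 with limma, 7 with no filter, 4 after thinning, 15 with the number run and 0 to 28 over left-out regions. For the curvature, 0 became 1 with DESeq2's size factors, 99 with DESeq2, 936 with no filter, 1 after thinning, 22 with the number run and 0 to 1 over left-out regions. For the end contrast, 4 became 203 with DESeq2, 0 with limma, 37 with no filter and 2 to 26 over left-out regions. Between classes, 1026 in either direction became 642 with limma and 1963 with the number run. The causes were not tested. After thinning, the share of *wntP-2* was 31.0% in cells with and 29.6% in cells without *ndl-3*, in place of 35.3% and 40.7%. Of 150 regional shares recomputed under another rule, thinning or within a number run, 19 left their interval, 18 of them within a run of few cells. Regions held 6 to 23 muscle cells, which limits each regional share.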
